A study of Saccharomyces cerevisiae with 12 samples.

Results

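The genes described here make, desaturate, elongate and activate fatty acids in the cytosol and endoplasmic reticulum of budding yeast. They were chosen by name, as the 9 genes ACC1, FAS1, FAS2, OLE1, ELO1, ELO2, ELO3, FAA1 and FAA4. Of these, 7 had a row in the authors' deposited tables, which list 5085 genes each, and all 7 were tested at every dose. ELO2 and ELO3 were not analysed here. RNA was measured by sequencing in 12 samples of 1 haploid strain in log phase, in 4 groups of 3 samples. All groups carried the same genotype, MATa his3-1 leu2-0 met15-0 with pRAP1::kanR-tetO7-TATA and URA3::CMV-tTA. The tetO7 promoter thus drove RAP1 and the CMV promoter drove the tTA activator in the control as well. The control group was set against groups given 0.01, 0.1 or 0.5 µg/mL doxycycline, which releases the activator from the promoter. No strain with an unmodified RAP1 promoter was given doxycycline in these samples, so lowered RAP1 and doxycycline itself cannot be told apart.

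Fatty acid synthesis in yeast begins when Acc1, acetyl-CoA carboxylase, makes malonyl-CoA. The multifunctional fatty acid synthase, built from the Fas1 and Fas2 subunits, joins malonyl units into saturated chains. Ole1, the only fatty acid desaturase of this yeast, adds the double bond that keeps membranes fluid, elongases lengthen chains, and Faa1 and Faa4 activate free fatty acids to acyl-CoA. FAS1, FAS2 and ACC1 are known targets of the Ino2/Ino4 activator of lipid synthesis genes. The general regulatory factors Rap1, Abf1 and Reb1 are also known to act on the 2 FAS promoters.

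Stretches upstream of 6 of the 7 genes are shown as examples of where the letters searched for lie. FAA4, for which none is printed, holds GAANNTTC at 225 and 872 bases before its start codon. On the other strand it holds AGGGG at 111 and CATGTG at 821 bases. The stretches are printed below. Each is read 5′ to 3′ on the strand of its gene from the R64 reference assembly, and capitals mark exact matches of the motifs named below. Positions count bases before the start codon, at the first base of the match.

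FAS1, chrXI:99791-99980, plus strand: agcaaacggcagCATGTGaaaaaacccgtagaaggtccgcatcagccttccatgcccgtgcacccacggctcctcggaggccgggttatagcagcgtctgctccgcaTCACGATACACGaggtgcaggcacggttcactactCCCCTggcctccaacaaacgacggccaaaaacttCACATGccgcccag
FAS2, chrXVI:108347-108471, plus strand: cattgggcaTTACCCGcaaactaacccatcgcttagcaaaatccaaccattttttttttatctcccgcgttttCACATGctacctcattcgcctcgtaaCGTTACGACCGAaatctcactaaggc
ACC1, chrXIV:661555-661724, minus strand: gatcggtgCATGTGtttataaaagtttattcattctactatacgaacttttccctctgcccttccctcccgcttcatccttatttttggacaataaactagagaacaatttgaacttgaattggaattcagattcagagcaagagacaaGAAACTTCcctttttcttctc
OLE1, chrVII:398258-398317, plus strand: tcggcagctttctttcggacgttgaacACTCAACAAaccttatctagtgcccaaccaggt
ELO1, chrX:68913-68972, minus strand: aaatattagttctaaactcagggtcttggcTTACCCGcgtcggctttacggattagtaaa
FAA1, chrXV:909233-909292, plus strand: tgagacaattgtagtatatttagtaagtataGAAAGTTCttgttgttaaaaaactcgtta

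The FAS1 stretch holds the Ino2/Ino4 core CATGTG at 868 and, on the other strand, at 704 bases before the start codon. Between them lie a match to the Abf1 motif (TC and ACG with 7 free bases between) at 773 and the stress element AGGGG, on the other strand, at 738. In FAS2 the Reb1 motif CGGGTAA at 296, the CATGTG core at 232 and the Abf1 motif at 206 lie close together, all on the other strand. The ACC1 stretch has CATGTG at 342 and the heat shock element GAANNTTC at 201. OLE1 holds its low-oxygen element ACTCAACAA at 343, ELO1 the Reb1 motif on the other strand at 160, and FAA1 the heat shock element at 79.

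Levels are given as FPKM, which scales fragments by transcript length and by library depth, so that they can be compared between genes. The authors' deposited tables give 1 level per group, pooled over its 3 samples, so no value per sample and no SD can be given and the depth is unknown. A gene is said to have risen or fallen where the authors' q, the p-value after their adjustment over all genes, was below 0.05. Nothing in the labels tells whether a group's samples were separate cultures, so q measures the spread between samples that may be technical. The 3 comparisons share their control samples, and their values are set side by side with no test between doses.

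RAP1 mRNA itself stood at 33.3 FPKM at 0.01 µg/mL against 31.7 FPKM in the control, and at 31.0 against 31.5 FPKM at 0.1 µg/mL, per the authors' deposited tables (log2 fold changes 0.07 and -0.02, q = 0.827 and 0.935). At 0.5 µg/mL it fell to 22.0 from 31.5 FPKM per the authors' deposited table (a log2 change of -0.52, q = 0.00764). The library groups are therefore called by their labelled dose. Over all tested genes the log2 fold change had a median of -0.08, -0.03 and -0.30 at 0.01, 0.1 and 0.5 µg/mL, so that values at the highest dose are also given relative to that median.

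Transcripts of the synthesis steps fell at all 3 doses. ACC1, FAS1, FAS2, OLE1 and ELO1 fell at each dose, FAA4 fell at 0.1 and 0.5 µg/mL, and FAA1 was not called at any dose. At 0.5 µg/mL the levels of FAS1, FAS2 and ELO1 were 33.0%, 32.3% and 33.2% of the control per the authors' deposited table. ACC1 stood at 40.7%, OLE1 at 45.5%, FAA4 at 51.8% and FAA1 at 83.9% of the control there, per the authors' deposited table. At 0.01 µg/mL 5 of 7 genes fell and 0 rose by the authors' q from Cuffdiff, while 15.4% of all tested genes fell and 8.75% rose. At 0.1 µg/mL 6 of 7 fell and 0 rose, against 20.4% and 17.6% of all tested genes. At 0.5 µg/mL 6 of 7 fell and 0 rose, where 38.9% of all tested genes fell and 7.49% rose. The median log2 fold change of the 7 genes was -0.66, -0.95 and -1.30 with rising dose. Relative to the median of all tested genes it was -0.58, -0.92 and -0.99. Most of the step of the 7-gene median from 0.1 to 0.5 µg/mL was thus that of the median of all genes. The gene at the 7-gene median was OLE1 at 0.1 and ACC1 at 0.5 µg/mL, and single genes differed. On that relative scale FAS1 was at -1.25 and -1.30, FAS2 at -1.12 and -1.33, and ELO1 at -1.06 and -1.29 at 0.1 and 0.5 µg/mL. ACC1 was at -0.88 and -0.99, and FAA4 at -0.57 and -0.64. With q below 0.01 in place of 0.05, 1 gene, FAS1, remained called at 0.01 µg/mL. With a minimum change of 2-fold, 0 genes were called lower at 0.01 µg/mL and 3 at 0.1 µg/mL. Unadjusted p-values were not used here.

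**Figure D1:**
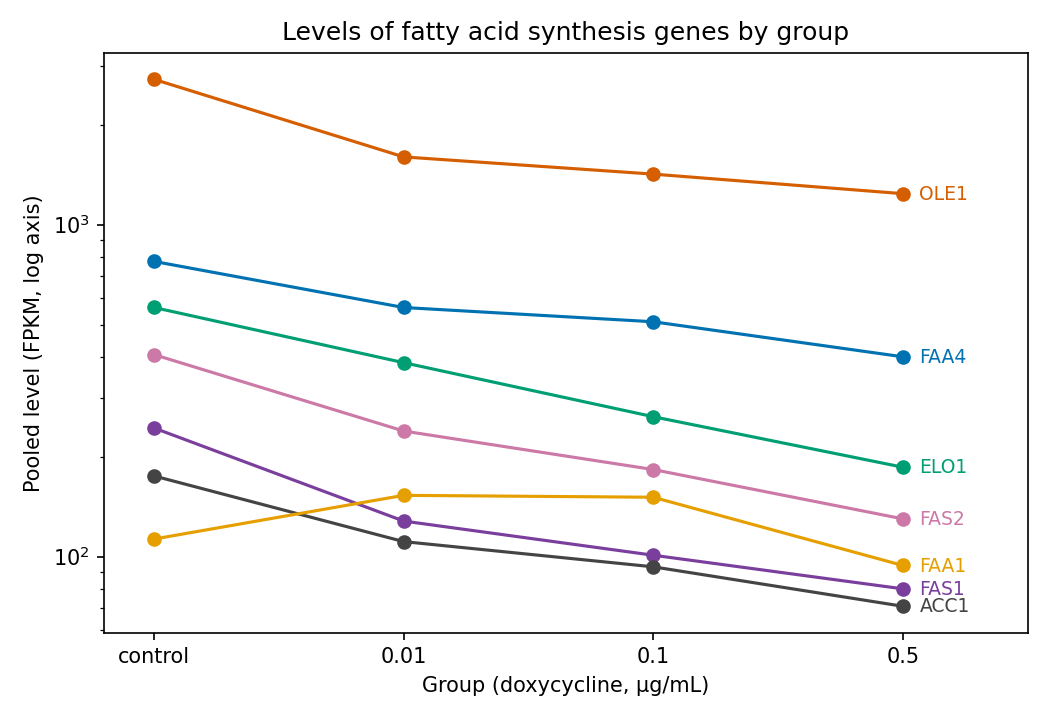
Pooled level of each gene (FPKM, log axis) in the control and the 3 doxycycline groups, with 1 point per group of 3 samples and no error available; the control is that of the 0.01 µg/mL table. OLE1 is the highest line in every group, from 2742 to 1243 FPKM, and FAA1 is the only line that lies above its control level at 0.01 and 0.1 µg/mL.

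ACC1 (YNR016C, chrXIV:654673-661374, 1 coding exon), which encodes the enzyme of the committed step, had 175 FPKM in the control and 111 FPKM at 0.01 µg/mL per the authors' deposited table. Its level was 93.2 FPKM at 0.1 and 70.9 FPKM at 0.5 µg/mL per the authors' deposited tables, each against 174 FPKM in the control. The log2 fold changes were -0.66 (q = 0.0378), -0.90 (q = 0.000329) and -1.30 (q = 0.000273) per the authors' deposited tables. Each dose group thus lay below the control. The q at 0.1 and 0.5 µg/mL was the smallest value at its dose, a floor that many genes shared. Among the members FAS1, FAS2 and ELO1 held it at both doses, and OLE1 and FAA4 at 0.5 µg/mL. HFA1, which encodes the mitochondrial acetyl-CoA carboxylase, is 63.8% identical to ACC1 in aligned coding bases, with a longest identical run of 26 bases. It stood at 13.1 FPKM in the control and was called only at 0.5 µg/mL, at a log2 fold change of -0.74 (q = 0.000273), per the authors' deposited tables.

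FAS1 (YKL182W, chrXI:100671-106826, 1 coding exon), the beta subunit gene of fatty acid synthase, went from 244 FPKM in the control to 128 FPKM at 0.01 µg/mL per the authors' deposited table. At 0.1 and 0.5 µg/mL it had 101 and 80.0 FPKM, each against 243 FPKM, per the authors' deposited tables. Its log2 fold changes were thus -0.93 (q = 0.00161), -1.27 (q = 0.000329) and -1.60 (q = 0.000273) per the authors' deposited tables. Only 2.52%, 2.02% and 1.74% of all tested genes had a lower log2 fold change than FAS1 at the 3 doses in turn.

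FAS2 (YPL231W, chrXVI:108652-114315, 1 coding exon), the alpha subunit gene, had 406 FPKM in the control and 239 FPKM at 0.01 µg/mL per the authors' deposited table. It stood at 183 FPKM at 0.1 µg/mL, against 405 FPKM, and at 130 FPKM at 0.5 µg/mL, against 404 FPKM, per the authors' deposited tables. These are log2 fold changes of -0.77 (q = 0.0255), -1.15 (q = 0.000329) and -1.63 (q = 0.000273) per the authors' deposited tables. The subunit transcripts thus fell side by side. The level of FAS1 divided by that of FAS2 was 0.601 in the control and 0.535, 0.551 and 0.614 with rising dose. Whether these ratios differ could not be tested on pooled levels.

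OLE1 (YGL055W, chrVII:398628-400160, 1 coding exon) was the most abundant of the 7, and only 94 tested genes had a higher control level. It went from 2742 to 1602 FPKM at 0.01, from 2732 to 1419 FPKM at 0.1 and from 2730 to 1243 FPKM at 0.5 µg/mL per the authors' deposited tables. The log2 fold changes were -0.78 (q = 0.0268), -0.95 (q = 0.000615) and -1.13 (q = 0.000273) per the authors' deposited tables. On the log2 scale most of its difference from the control was already present at the lowest dose, as for FAS1 and, narrowly, ACC1. Relative to the median of all genes, its log2 fold change was -0.92 at 0.1 µg/mL and -0.83 at 0.5 µg/mL. The OLE1 level was 6.75 times that of FAS2 in the control and 6.72, 7.78 and 9.53 times with rising dose. Against ACC1 it was 15.7 times in the control and 14.4, 15.2 and 17.5 times. Whether these ratios differ could not be tested on pooled levels either.

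ELO1 (YJL196C, chrX:67850-68782, 1 coding exon) encodes the elongase of medium-length chains. It had 563 FPKM in the control and 384 FPKM at 0.01 µg/mL, 264 FPKM at 0.1 µg/mL and 186 FPKM at 0.5 µg/mL per the authors' deposited tables, where the control stood at 561 FPKM for the 2 higher doses. On the log2 scale the changes were -0.55 (q = 0.0276), -1.09 (q = 0.000329) and -1.59 (q = 0.000273) per the authors' deposited tables. ELO1 thus had the smallest change of the 5 genes called at 0.01 µg/mL and came level with the FAS genes at 0.5 µg/mL. Its log2 fold change differed by -0.53 between 0.01 and 0.1 µg/mL and by -0.51 between 0.1 and 0.5 µg/mL, while the median over 5041 genes tested at all doses moved by 0.05 and -0.29. The coding sequence of ELO1 shares no identical run longer than 13 bases with those of ELO2 and ELO3.

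FAA4 and FAA1 encode the main acyl-CoA synthetases for long-chain fatty acids taken up from outside. FAA4 (YMR246W, chrXIII:759807-761891, 1 coding exon) had 775 FPKM in the control and 563 FPKM at 0.01 µg/mL per the authors' deposited table (a log2 change of -0.46, q = 0.193). It fell to 510 FPKM at 0.1 µg/mL, from 772 FPKM, per the authors' deposited table (a log2 change of -0.60, q = 0.0235). At 0.5 µg/mL it fell to 400 from 771 FPKM per the authors' deposited table (a log2 change of -0.95, q = 0.000273). All 3 dose groups lay below the control, and the change at 0.01 µg/mL did not pass the authors' threshold.

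FAA1 (YOR317W, chrXV:909343-911445, 1 coding exon) was the exception among the 7. It stood at 153 FPKM at 0.01 µg/mL against 113 FPKM in the control per the authors' deposited table (a log2 change of 0.44, q = 0.0713). At 0.1 µg/mL it had 151 against 112 FPKM per the authors' deposited table (a log2 change of 0.43, q = 0.0638). At 0.5 µg/mL the level was 94.1 against 112 FPKM per the authors' deposited table (a log2 change of -0.25, q = 0.313), which is 0.05 above the median of all tested genes. The level lay above the control at the 2 lower doses and below it at the highest, with no call at any dose. With q below 0.1 in place of 0.05, FAA1 was called higher at both 0.01 and 0.1 µg/mL. The level of FAA1 divided by that of FAA4 was 0.146 in the control and 0.272, 0.296 and 0.236 with rising dose. The 2 coding sequences are 65.9% identical in aligned bases, with a longest identical run of 23 bases. The same alignment, also used for ACC1 and HFA1, gave 58.1% for FAS1 and FAS2, which encode different subunits.

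**Figure D2:**
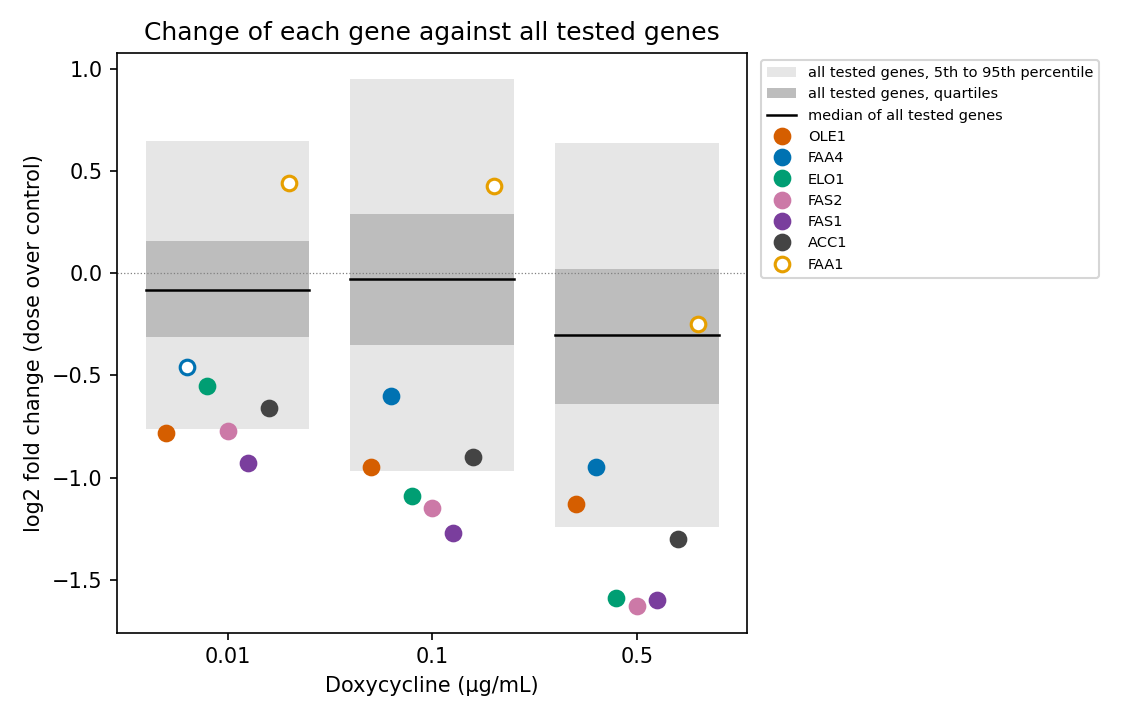
Log2 fold change of each gene at each dose, filled where the authors' q was below 0.05 and open where it was not, over bands for all tested genes (5th to 95th percentile, quartiles and median). The 6 genes other than FAA1 lie below the lower quartile at all 3 doses, and the median of all genes is itself at -0.30 at 0.5 µg/mL.

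In the control the levels ran from OLE1 through FAA4, ELO1, FAS2, FAS1 and ACC1 to FAA1, from 2742 to 113 FPKM per the authors' deposited table. At each dose the order was the same except that FAA1 lay above FAS1 and ACC1. FAA1 stood at 153, 151 and 94.1 FPKM with rising dose per the authors' deposited tables. No spread is available to say which neighbours in that order differ. Of the 7 genes, 6 lay below the lower quartile of all tested genes at each dose. That quartile was at -0.31, -0.35 and -0.64 with rising dose. Below the 5th percentile of all tested genes lay 3, 3 and 4 of the 7.

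Genes with log2 fold changes nearest to those of 3 members over the 3 doses were found by Euclidean distance among 5040 other genes. The nearest to ACC1 were ARB1, IZH2 and UTP4, at distances of 0.013, 0.03 and 0.0338. For FAS1 they were FUS1, SAM1 and BMT5 (0.0287, 0.0508 and 0.0708), and for OLE1 they were RPS4B, RPS19A and RPF2 (0.0215, 0.0471 and 0.05). Among the members themselves FAS1 and FAS2 were 0.211 apart, FAS2 and ELO1 0.226, and ACC1 and OLE1 0.206. FAA1 was at least 1.53 from each of the others. SAM1, RPS4B and RPS19A have close copies in the genome, between which reads can be split. Each distance rests on 3 values that share the control samples.

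Genes that supply acetyl-CoA and biotin, the substrate and cofactor of Acc1, went both ways. Of 8, 3 fell and 1 rose at 0.01 and at 0.1 µg/mL, and 4 fell and 1 rose at 0.5 µg/mL, with medians of -0.18, -0.06 and -0.36. Among all tested genes 15.4%, 20.4% and 38.9% fell and 8.75%, 17.6% and 7.49% rose at the 3 doses. ACS2, the acetyl-CoA synthetase gene used on glucose, fell at every dose, at log2 fold changes of -0.57, -0.63 and -1.03 per the authors' deposited tables. BIO2, the biotin synthase gene, went from 105 FPKM to 57.3, 48.5 and 37.3 FPKM per the authors' deposited tables (log2 fold changes -0.88, -1.11 and -1.49). VHT1, the biotin transporter gene, fell as well, at -0.56, -0.73 and -0.84 per the authors' deposited tables. BIO5, which encodes the transporter of a biotin precursor, rose by 0.59, 0.89 and 0.74 on the log2 scale per the authors' deposited tables.

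Partner enzymes of the elongases were counted over 3 genes, too few to read against the shares of all tested genes given below. Of IFA38, PHS1 and TSC13, which complete the elongation cycle, 0 were called at the 2 lower doses by the authors' q from Cuffdiff, and the medians were -0.19, -0.13 and -0.31 over the 3 doses. IFA38, the ketoreductase gene, fell at 0.5 µg/mL, from 285 to 200 FPKM, per the authors' deposited table (a log2 change of -0.52, q = 0.0199). The separate mitochondrial pathway, which makes the precursor of lipoic acid, had 0 of 8 genes called at 0.01 µg/mL. At 0.1 µg/mL 1 fell and 1 rose, and at 0.5 µg/mL 3 fell, with medians of -0.05, -0.03 and -0.15 over the doses. With rising dose 15.4%, 20.4% and 38.9% of all tested genes fell, and 8.75%, 17.6% and 7.49% rose. The genes that fell at 0.5 µg/mL were OAR1 (-1.02), a ketoacyl reductase gene, HTD2 (-0.64), a dehydratase gene, and HFA1, named above, per the authors' deposited table.

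Fatty acid breakdown genes, 11 of which were measured, went both ways. At 0.01 µg/mL 1 fell and 1 rose, at 0.1 µg/mL 1 fell and 3 rose, and at 0.5 µg/mL 2 fell and 0 rose, with medians of -0.09, 0.01 and -0.23. The shares of all tested genes that fell were 15.4%, 20.4% and 38.9%, and those that rose 8.75%, 17.6% and 7.49%. DCI1, named as a dienoyl-CoA isomerase gene, fell at every dose, at log2 fold changes of -0.48, -0.54 and -0.75 per the authors' deposited tables. PXA2, which encodes a subunit of the peroxisomal importer of acyl-CoA, rose at 0.01 µg/mL, at 0.44 (q = 0.0474), and at 0.1 µg/mL, at 0.68 (q = 0.000329), per the authors' deposited tables. FOX2 of the oxidation cycle (0.54) and the thioesterase gene TES1 (0.49) rose at 0.1 µg/mL per the authors' deposited table, and these 3 genes were named after their values were seen. SPS19, which encodes a peroxisomal reductase for unsaturated chains, fell at 0.5 µg/mL, at -0.88 (q = 0.0102), per the authors' deposited table. Of 3 other genes of acyl-CoA synthesis, uptake and binding, 1 fell at 0.01 and 2 fell at each of the higher doses, and 0 rose at any, with medians of -0.31, -0.50 and -0.57. FAA3, an acyl-CoA synthetase gene, went from 54.5 to 27.8 FPKM at 0.01 µg/mL per the authors' deposited table, with log2 fold changes of -0.97, -1.29 and -1.50 over the doses. ACB1, which encodes the acyl-CoA binding protein, had 3160 FPKM in the control and log2 fold changes of -0.31 (q = 0.218), -0.50 (q = 0.0217) and -0.57 (q = 0.0094) per the authors' deposited tables.

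**Figure D3:**
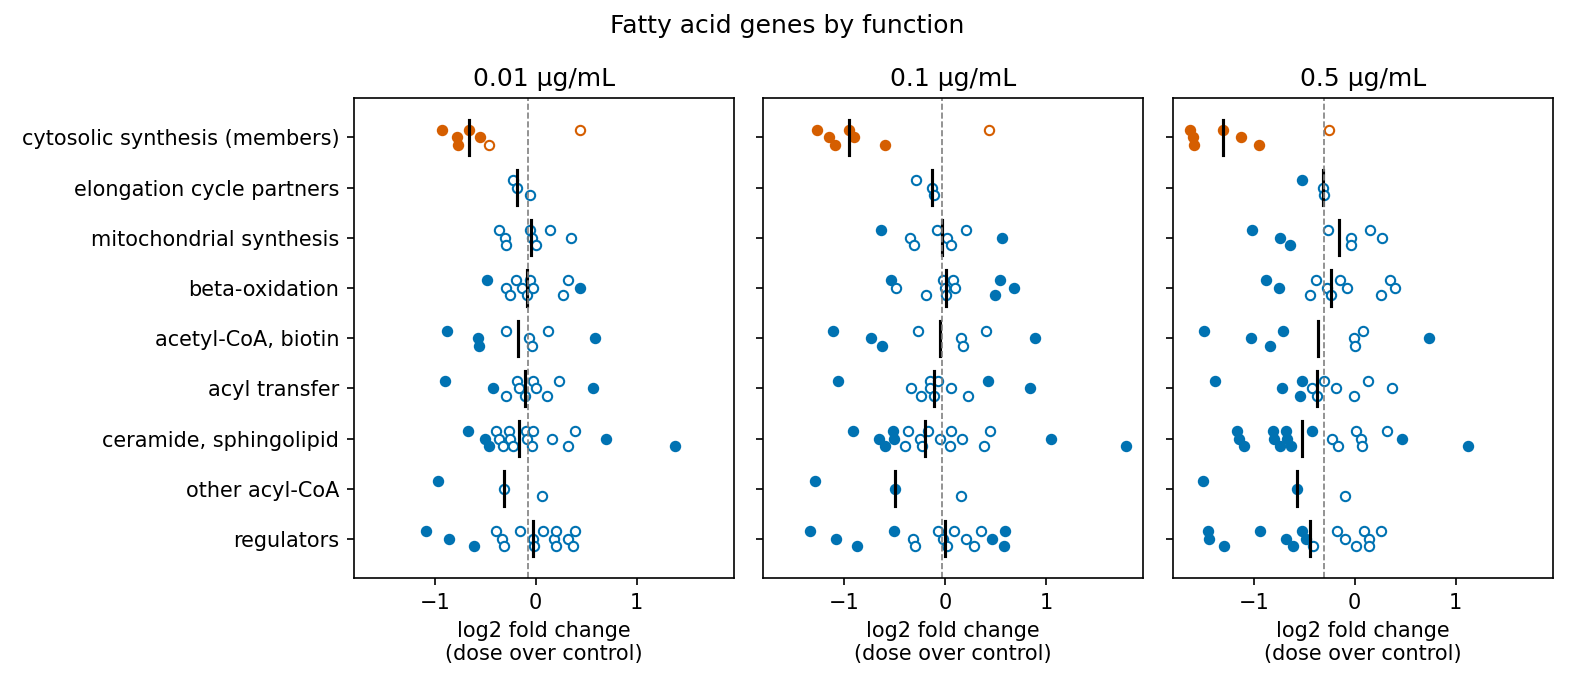
Log2 fold change of each tested gene by functional list at the 3 doses, filled where the authors' q was below 0.05; black bars are list medians and the dashed line is the median of all tested genes. The members' median lies at -0.66, -0.95 and -1.30, and each of the 8 other lists has its median between -0.57 and 0.01.

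Genes that use fatty acids differed among themselves. Of 11 genes of acyl transfer into glycerolipids and storage lipids, 2 fell and 1 rose at 0.01, 1 fell and 2 rose at 0.1, and 4 fell and 0 rose at 0.5 µg/mL. Their medians were -0.11, -0.11 and -0.37. For all tested genes the shares that fell were 15.4%, 20.4% and 38.9%, and those that rose 8.75%, 17.6% and 7.49%. ALE1, a lysophospholipid acyltransferase gene, went from 211 to 113 FPKM at 0.01 µg/mL per the authors' deposited table and had log2 fold changes of -0.90, -1.06 and -1.38 over the doses. CST26, an acyltransferase gene of phosphatidylinositol remodelling, and LRO1, which makes storage triglyceride, fell at 0.5 µg/mL (-0.72 and -0.54) per the authors' deposited table. CST26 also fell at 0.01 µg/mL, at -0.42 (q = 0.0356), per the authors' deposited table. The genes that rose, named after their values were seen, were AYR1 of phosphatidic acid synthesis, at 0.57 and 0.84 at the 2 lower doses, and DGA1 of triglyceride synthesis, at 0.42 at 0.1 µg/mL, per the authors' deposited tables. Of 18 ceramide and sphingolipid genes, 3 fell at 0.01, 5 at 0.1 and 10 at 0.5 µg/mL, and 2 rose at each dose, with medians of -0.16, -0.20 and -0.53. TSC10, a reductase gene of sphingoid base synthesis, fell with log2 fold changes of -0.67, -0.91 and -1.15 per the authors' deposited tables. The ceramide synthase gene LAG1 (-0.50, -0.51 and -0.74) and AUR1 of inositol phosphorylceramide synthesis (-0.46, -0.52 and -0.68) fell too per the authors' deposited tables. The 2 that rose were the ceramidase genes, which encode enzymes that release fatty acid from ceramide. YPC1 went from 28.7 to 74.7 FPKM at 0.01 µg/mL and had log2 fold changes of 1.38, 1.79 and 1.12 per the authors' deposited tables, and YDC1 had 0.70, 1.05 and 0.47.

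Among 16 regulators of fatty acid genes, 3 fell and 0 rose at 0.01 µg/mL, 4 fell and 3 rose at 0.1 µg/mL, and 8 fell and 0 rose at 0.5 µg/mL. Over all tested genes 15.4%, 20.4% and 38.9% fell at these doses, and 8.75%, 17.6% and 7.49% rose. The list medians were -0.02, -0.0017 and -0.45. RAP1 itself, under the doxycycline-controlled promoter, is a member of the list and 1 of the 8 that fell. Those that rose at 0.1 µg/mL, named after their values were seen, were UBX2 (0.46), OAF1 (0.59) and REG1 (0.58) per the authors' deposited table. INO2, the activator gene whose product pairs with Ino4, went from 32.4 to 15.3 FPKM at 0.01, from 32.3 to 12.7 FPKM at 0.1 and from 32.2 to 11.8 FPKM at 0.5 µg/mL per the authors' deposited tables. Its log2 fold changes were -1.09, -1.34 and -1.45 per the authors' deposited tables. The q was the smallest at each dose, a floor shared at every dose by BIO2, YPC1, ALE1, TSC10, FAA3 and others. INO4, looked at outside the naming rule, was not called (-0.03, 0.02 and -0.17 per the authors' deposited tables). MGA2, which encodes a membrane-bound activator of OLE1, went from 92.8 to 51.1 FPKM at 0.01 µg/mL per the authors' deposited table and had log2 fold changes of -0.86, -1.08 and -1.44 over the doses. Its paralogue SPT23, also looked at outside the naming rule, was not called (0.20, 0.29 and 0.09 per the authors' deposited tables). ABF1 fell at all doses, at -0.61, -0.87 and -1.29, per the authors' deposited tables. REB1, also outside the naming rule, had -0.39 (q = 0.0524), -0.51 (q = 0.00617) and -0.94 (q = 0.000273) per the authors' deposited tables. The others that fell were OPI1 (-0.61), MOT3 (-0.68) and SNF1 (-0.48), called at 0.5 µg/mL only, per the authors' deposited tables. Protein levels of these factors were not analysed here, and their part in the change of the members was not tested.

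The motifs of the printed stretches were counted on both strands upstream of 4992 coding genes of the tables. In the window from 250 bases before to 50 after the start codon, CATGTG was found in FAS2 alone among the 7, and in 6.59% of all windows. In the 1000 bases before the start codon it was found in 6 of the 7, all but ELO1, and in 26.0% of all windows. The Rap1 motif, taken as ACACCC and ACA with 2 free bases between, was found in 0 of the 7 in either window, against 0.441% and 1.4% of all windows. With at most 1 mismatch it was again in 0 of the 7, against 5.63% and 17.6% of all windows. These letters are thus not in those windows, which does not bear on whether Rap1 binds there. The Abf1 motif was found in 2 of the 7 in the shorter window (31.2% of all) and in 5 of the 7 in the longer one (69.7% of all). The FAS1 match in the shorter window begins 5 bases before the start codon and runs across it. In ELO1 both of its matches, at 960 and 597 bases, lie beyond the gap to CDC6. The FAS2 match at 686 bases lies beyond the gap to SSO1. The Reb1 motif was in FAS2 and ELO1 in the longer window (14.4% of all), and the low-oxygen element in OLE1 alone (1.14% of all). In the shorter window the heat shock element GAANNTTC was in ACC1, FAS1, FAA1 and FAA4 (12.0% of all) and the stress element AGGGG in FAA1 and FAA4 (20.9% of all). In the longer window they were in 6 of the 7 (36.0% of all) and in 5 of the 7 (54.5% of all). Genes whose level fell and FAA1, which was not called, carry both, and a match is a description of the letters only. In FAS2 and ELO1 the longer window reaches into the neighbouring gene, since the gap upstream is 504 and 555 bases.

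**Figure D4:**
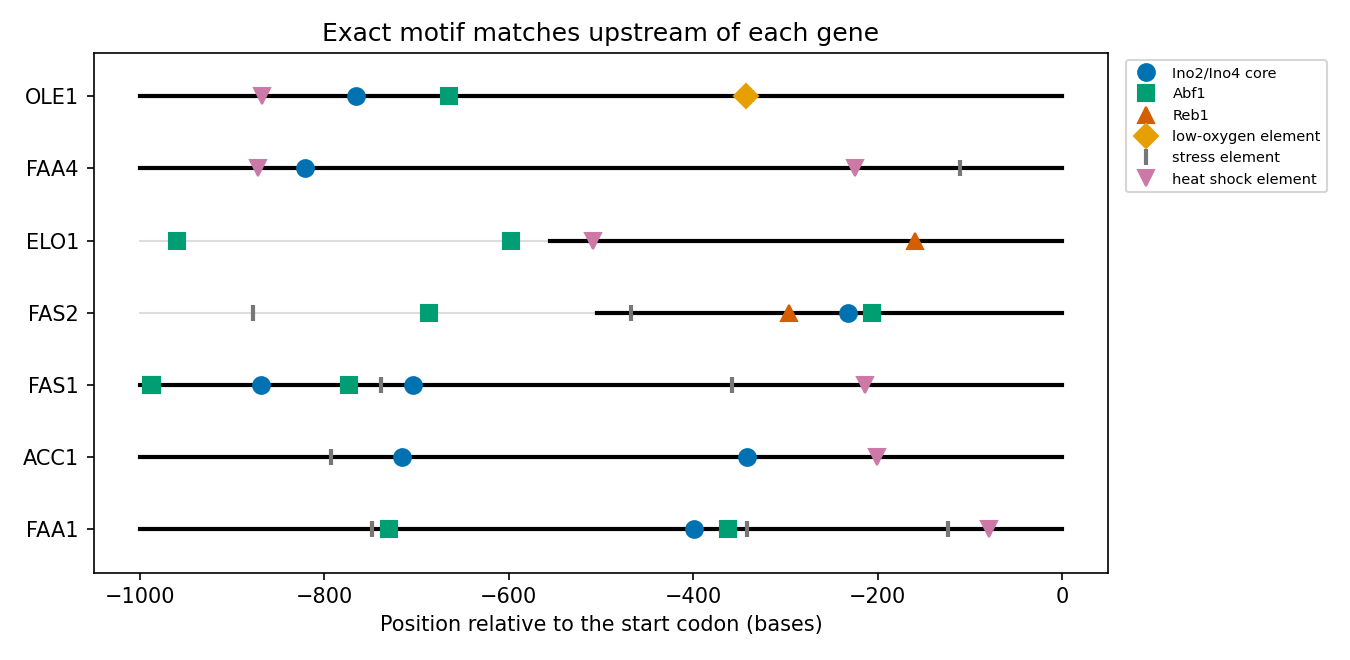
Exact motif matches on either strand in the 1000 bases upstream of each gene's start codon (horizontal axis, bases); the black line is the gap to the upstream neighbour and the grey line lies beyond it. FAS2 holds Reb1, Ino2/Ino4 and Abf1 matches at 296, 232 and 206 bases before the start codon, and no gene holds an exact Rap1 match.

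Neighbouring genes, which were looked at outside the naming rule, did not all move with the members. Of the 13 neighbours on either side with a row, 3 fell and 1 rose at 0.01, 4 fell and 0 rose at 0.1, and 8 fell and 0 rose at 0.5 µg/mL. Of all tested genes, 15.4%, 20.4% and 38.9% fell and 8.75%, 17.6% and 7.49% rose at these doses. ELO1 shares its upstream gap with the divergent gene CDC6, which encodes a DNA replication licensing factor. CDC6 fell at each dose, by log2 changes of -1.18, -1.58 and -1.63 from the authors' deposited levels. The divergent neighbour of OLE1 across a gap of 1009 bases, SDS23, fell as well (-0.62, -0.89 and -1.08 per the authors' deposited tables). TIM23, divergent from ACC1, fell at 0.1 and 0.5 µg/mL (-0.46 and -0.84), and RKR1, downstream of FAA4, fell at each dose (-0.54, -0.60 and -0.93), per the authors' deposited tables. The genes upstream of FAS1 and FAS2, LOT5 and SSO1, were not called at any dose by the authors' q from Cuffdiff. Their log2 fold changes were 0.08, 0.09 and -0.09 for LOT5 and -0.02, 0.07 and -0.08 for SSO1, from the authors' deposited levels.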

How the data were processed

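RNA sequencing of 12 samples in 4 groups was analysed from 3 tables, 1 for each dose and its control. The submitters' processing notes name FastQC, Bowtie2, Cuffdiff and build R64. For tool versions, settings, annotation and use of strand, nothing is stated in the sources used here. The FPKM levels were made by the authors with Cuffdiff, pooled over samples and deposited. That unit was inferred from the Cuffdiff column names, since the file headers state none. The log2 fold changes, dose over control with no pseudocount, and the q-values are those the authors deposited. The log2 fold changes were recomputed from the levels and differed by at most 1.27e-05. The group headed WT was read as the labelled control. Each table was scaled separately, with control columns at a median of 0.997 and 0.996 of the first table's. Each table has 5085 genes; 3 lines of each were emptied for this work, and 2 symbols turned into dates were restored by identifier. Genes at a level of 0 or a q of 1 were not tested, which left 5049, 5054 and 5047 genes.

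A gene was called where q was below 0.05. No test was added, as the tables hold no values per sample. The members and lists were chosen with earlier results of these data known. Of 80 genes in 8 lists, 78 had a row. Named from each list were genes called at all doses, at most 5 by mean absolute log2 fold change; where fewer than 2 were, also up to 3 called at 0.5 µg/mL. Coordinates and upstream sequence came from the R64 reference, in which 4992 coding genes of the tables were found by locus tag. The 1000-base window was chosen after seeing the data. Scripts used Python 3.11.15, pandas 2.3.3 and Biopython 1.88 and were tested on simulated data. Depth is unknown, so no counting interval is given.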

Additional observations from a re-analysis of the deposited data

How the results depend on the processing

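The direction of all 21 log2 fold changes of the members was the same with a pseudocount of 1 and with the control averaged over the 3 tables, which moved them by at most 0.012 and 0.0041. Counted from the median of all tested genes, 20 kept their sign and FAA1 at 0.5 µg/mL became 0.05, by the construction of that setting. Counts of members called were within 1.5 times the reported count with a minimum change of 1.5-fold, with centring on the median, with the pseudocount and with a mean level of at least 10. With q below 0.01 the count that fell at 0.01 µg/mL went from 5 to 1. With q below 0.1 the count that rose went from 0 to 1 at both 0.01 and 0.1 µg/mL. With a minimum of 2-fold the counts that fell were 0 at 0.01 and 3 at 0.1 µg/mL, since most changes there were smaller. With at most 1 mismatch in the degenerate Rap1 consensus, a setting chosen after seeing the data, 0 of the 7 members had a match in either window, against 1.52% and 4.47% of all windows. With a mean level of at least 10, also chosen after seeing the data, 47 of 48 counts over the other lists stayed within 1.5 times, and the breakdown genes that fell at 0.5 µg/mL went from 2 to 1. No paired analysis was possible because the tables give 1 pooled level per group, and for the same reason no replicate could be left out.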
